A study of Homo sapiens with 6 samples.

Results

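The genes described here encode 10 proteins of the centromere and kinetochore: CENPA, CENPE, CENPF, CENPH, CENPI, CENPK, CENPM, CENPN, CENPU and CENPW. They were chosen by name, as the probe sets that carry one of these symbols and no other, which gave 20 probe sets for the 10 genes among 54675 probe sets and 19775 single-symbol genes on the array. Levels were compared between 76N cells transfected with an siRNA against Ecd (n = 3 arrays) and 76N cells transfected with a control siRNA (n = 3 arrays). The labels describe 76N as normal human mammary epithelial cells grown in DFCI-1 medium, and each array as a biological replicate. Both groups went through an siRNA transfection, and whether the replicates came from separate thaws was not given in the sources used here. ECD encodes Ecd and is named after the Drosophila gene ecdysoneless, its counterpart in flies, and the comparison shows which transcripts differed after siRNA against it. All 76N arrays come from 1 line of cells.

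The centromere is the place on each chromosome where the spindle attaches. CENP-A, a variant of histone H3, marks it, and the constitutive centromere-associated network, a set of interlocking subcomplexes, sits on CENP-A chromatin and carries the outer kinetochore. CENP-E, a kinesin motor, and CENP-F, a large coiled-coil protein, join the kinetochore only as cells enter mitosis. Transcripts of several of these genes are known to accumulate late in the cell cycle in dividing cells, and epithelial cells that stop dividing keep little of them.

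All 10 genes were lower after Ecd siRNA, with log2 changes of -3.35 to -0.92 and a median of -1.56. In the brightest single-symbol probe sets CENPM fell the most, followed by CENPF and CENPE, while CENPA and CENPH fell the least. Another probe set, annotated to both SLC35F6 and CENPA and left out of this order, was at -2.68. Signals are MAS5 values on a linear scale, and a change is the difference of mean log2(signal + 16), read from the brightest probe set of a gene. A gene was called when its limma p, adjusted over the 14603 genes tested, was under 0.05. By that rule all 10 members were lower and 0 higher, beside 11% of all tested genes lower and 10.1% higher. The members were chosen with earlier results of these data known, so this count is not a test of them. Of 10 genes tested from a list of other centromere genes, 4 were lower. That list includes CENPJ, which was not called and encodes a centriole protein. Over all tested genes the median of the log2 change was 0.008. A change below -1 was seen in 8 of the 10 members and in 2.16% of all tested genes, and a change below -2 in 3 members and in 0.527% of all tested genes. CENPM lay under the filter signal of 84.6 on every Ecd siRNA array and passed it only through the control siRNA arrays, so its fall was fixed by the filter. Without it 9 of 9 members were lower, 7 were below -1 and 2 below -2, with a median of -1.46. In each of the 10 the arrays of the 2 groups did not overlap, which held in this direction for 18.3% of all tested genes. In RNA from whole cultures, fewer dividing cells and less transcript per cell cannot be told apart.

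**Figure D1:**
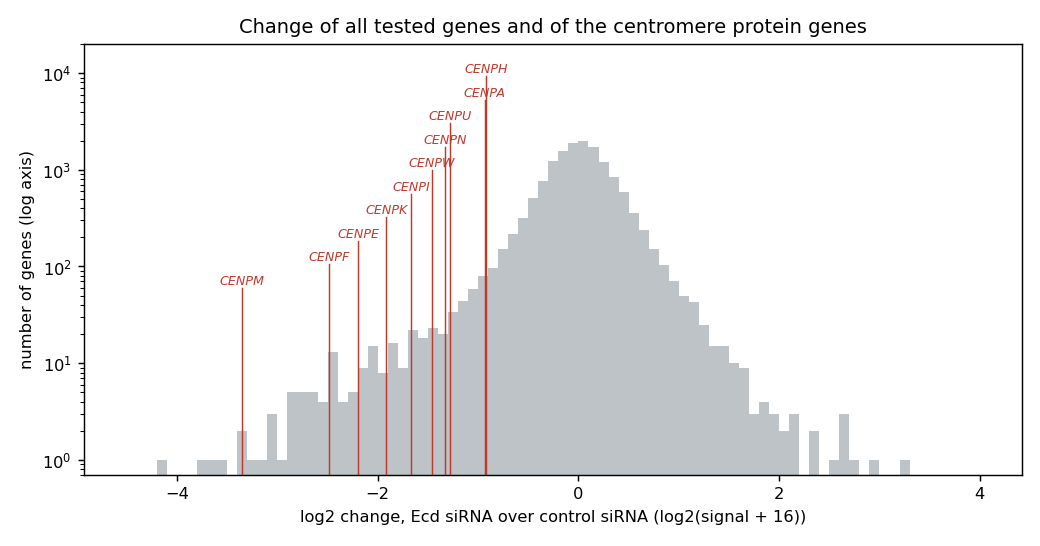
Histogram of the log2 change of the 14603 tested genes (x axis, Ecd siRNA over control siRNA; y axis, number of genes on a log scale), with a red line at each centromere protein gene. The bulk of genes centres on 0.008 and the 10 lines lie between -3.35 and -0.92.

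The arrays themselves were alike in scale. Median signals were 134.6 to 146.7 on the Ecd siRNA arrays and 128.7 to 147.6 on the control siRNA arrays. Ratios of 3' to 5' GAPDH control probe sets, a measure of RNA integrity, were 0.9739 to 1.0031 with Ecd siRNA and 0.9741 to 0.9804 with control siRNA. The targeted transcript itself, ECD, had 55.9% of its control signal left, with a log2 change of -0.82 (limma adjusted p = 0.000172) and no overlap of the arrays. The two-sided exact permutation p for ECD was 0.1, the smallest that 3 against 3 arrays allow. The epithelial keratin gene KRT14 averaged 22350 ± 1273 with Ecd siRNA and 21386 ± 1315 with control siRNA (SD, n = 3 each), and EPCAM averaged 2004 with Ecd siRNA and 2053 with control siRNA. Neither these nor KRT5 was called, while the cadherin gene CDH1 rose by 0.25 on the log2 scale (limma adjusted p = 0.00935). KRT17 and TP63, also listed as epithelial markers, had no single-symbol probe set and were not tested. Summed over the 6 fibroblast markers, signals were 1316 to 1398 with Ecd siRNA and 981.4 to 1155 with control siRNA. COL1A1 was the 1 of the 2 tested fibroblast markers that rose (0.52), and PDGFRA, PDGFRB, COL3A1 and LUM lay under the filter. The 2 leukocyte markers, PTPRC and CD14, lay under it too, as did the endothelial marker CDH5. CD14 read 78, 18.3 and 20 with Ecd siRNA, against 92, 102.1 and 140.6 with control siRNA, without overlap, and was not tested. The other endothelial marker, PECAM1, averaged 409.4 with Ecd siRNA and 476.4 with control siRNA and was not called (-0.20, limma adjusted p = 0.366). The part of fibroblast, endothelial or leukocyte marker signal in the changes of centromere genes was not tested.

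The histone variant gene CENPA showed one of the smaller changes in its single-symbol probe set. Its signals were 254.7, 251.4 and 331.9 in the Ecd siRNA arrays, against 516, 601 and 518.3 in the control siRNA arrays. All 3 Ecd siRNA arrays were lower, and 51.2% of the control signal remained, a log2 change of -0.93 (SE 0.15, limma adjusted p = 0.00119). That probe set is of the _x_at kind, which may bind other transcripts as well. A second probe set is annotated to both SLC35F6 and CENPA, and the accession given for it is a transcript of CENPA. It read 137.2, 175.1 and 165.4 with Ecd siRNA, against 1153.1, 1089.3 and 1072.6 with control siRNA. On that probe set 14.4% of the control signal remained, a log2 change of -2.68 that was left out of the fit because the annotation names a pair of genes. The size of the fall of CENPA therefore differs widely between these probe sets.

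The proteins that place CENP-A at centromeres are encoded by other genes, and most of these were lower too. Of the 7 deposition genes tested, 5 fell, 0 rose and 2 were not called, with a median log2 change of -1.09. HJURP, the CENP-A chaperone, was at 207.6 ± 54.8 with Ecd siRNA and 1290 ± 110.1 with control siRNA (SD, n = 3 each), a log2 change of -2.58. OIP5 (225.1 with Ecd siRNA and 944.3 with control siRNA in mean signal) and MIS18A (log2 change -1.09), subunits of the Mis18 complex that licenses deposition, fell, and so did the histone chaperone genes NASP (-1.55) and RBBP7 (-0.38). RBBP4 was at -0.09 (limma adjusted p = 0.486) and the nucleophosmin gene NPM1 at -0.15 (limma adjusted p = 0.111). Another NPM1 probe set was at -0.59 without overlap (adjusted p = 0.00022 over probe sets). NASP was not called as the mean of its probe sets (-0.62), where a dim one under the filter, with overlapping groups, enters. Its other probe set above the filter was at -0.87 without overlap (adjusted p = 0.0043 over probe sets).

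Among the 4 genes of the CENP-H/I/K/M subcomplex, a unit of the constitutive network in which CENP-M is a small protein related to GTPases, changes ran from -0.92 to -3.35. CENPM read 20.5, 29.8 and 18.7 in the Ecd siRNA arrays, against 341, 446.8 and 358.1 in the control siRNA arrays. Only 6.02% of the control signal remained, and the log2 change of -3.35 (SE 0.26, limma adjusted p = 1.07e-05) was the sixth lowest of all genes tested. The size depended on the pseudocount, with -4.01 at a pseudocount of 1 and -2.35 at 64.

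CENPK had signals of 245.4, 326.2 and 404.9 with Ecd siRNA, against 1214.5, 1182.7 and 1347.3 with control siRNA. The groups lay far apart, with 26.1% of the control signal left and a log2 change of -1.91 (limma adjusted p = 1.70e-05). CENPI, an X-linked gene, read 108, 170.5 and 133.4 in the Ecd siRNA arrays, against 472.8, 471.1 and 449.3 in the control siRNA arrays. Its control arrays were nearly equal and its Ecd siRNA arrays varied more, and the log2 change was -1.67 (limma adjusted p = 0.000101). CENPH read 455.4, 533.6 and 441.7 with Ecd siRNA, against 930.1, 1149.1 and 712.3 with control siRNA. Its control arrays were the more spread ones, the groups stayed apart, and the log2 change was -0.92 (limma adjusted p = 0.00248). The 95% intervals were -2.27 to -1.56 for CENPK, -2.07 to -1.27 for CENPI and -1.28 to -0.56 for CENPH, and differences between genes were not tested. CENPH, like CENPA, is read by a single-symbol probe set of the _x_at kind. These were the only members so read, and in these probe sets they had the 2 smallest changes.

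**Figure D2:**
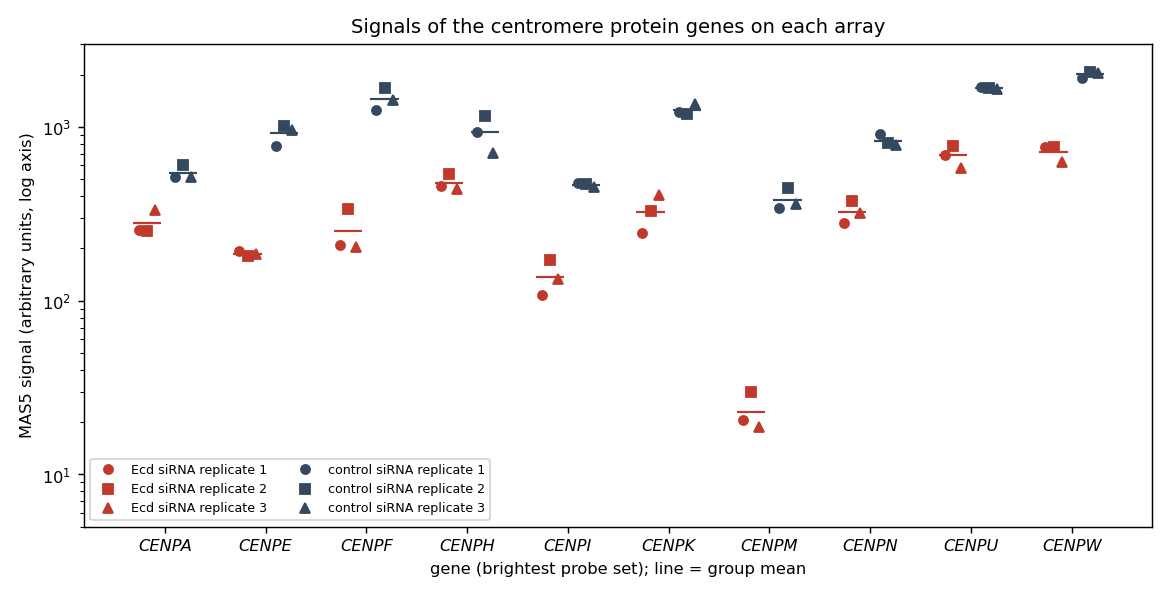
MAS5 signal (y axis, arbitrary units on a log scale) of the brightest probe set of each centromere protein gene on each of the 3 Ecd siRNA arrays (red) and the 3 control siRNA arrays (dark), with a line at each group mean. In every gene the red points lie below the dark ones, from 23.0 against 382.0 for CENPM to 476.9 against 930.5 for CENPH in mean signal.

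CENP-N, which reads the CENP-A nucleosome together with its partner CENP-L, belongs to the next subcomplex. CENPN read 279.6, 375.6 and 317.7 in the Ecd siRNA arrays, against 911, 807.3 and 786.7 in the control siRNA arrays. The 2 groups were well separated, with 38.8% of the control signal left and a log2 change of -1.33 (SE 0.13, limma adjusted p = 5.98e-05). CENPL fell by 0.61 on the log2 scale (limma adjusted p = 0.0036), to 369.4 ± 12.1 with Ecd siRNA against 574.3 ± 42.0 with control siRNA (SD, n = 3 each).

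The CENP-O/P/Q/U/R subcomplex, whose CENP-U subunit binds the mitotic kinase PLK1, held members that fell and 1 tested member that was not called. CENPU read 693, 781 and 580.5 with Ecd siRNA, against 1689.5, 1679.3 and 1642.4 with control siRNA. The control siRNA arrays were close to one another and all above the Ecd siRNA arrays. The log2 change was -1.28 (SE 0.11, limma adjusted p = 2.21e-05), with 41.0% of the control signal left. CENPQ (-1.07) and ITGB3BP, the gene of CENP-R (-0.67), fell as well. CENPO was at -0.04 (limma adjusted p = 0.912) in its brightest probe set and at -0.64 in another one (adjusted p = 0.058 over probe sets). CENPP was not analysed here.

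CENP-W pairs with CENP-T through histone folds in the CENP-T/W/S/X subcomplex. CENPW read 761.9, 765.1 and 632.2 in the Ecd siRNA arrays, against 1901.1, 2065.6 and 2041.3 in the control siRNA arrays. Every Ecd siRNA array was below every control siRNA array, and the log2 change was -1.46 (SE 0.10, limma adjusted p = 4.00e-06), with 35.9% of the control signal left. CENPT, which encodes its direct partner, averaged 342.3 ± 39.9 with Ecd siRNA and 311.9 ± 36.7 with control siRNA (SD, n = 3 each), groups that overlapped. The log2 change of CENPT was 0.13 with a 95% interval of -0.21 to 0.46 (limma adjusted p = 0.625), against an interval of -1.68 to -1.24 for CENPW. CENPX fell by 0.81 (limma adjusted p = 0.00482), and CENPS was not analysed here.

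Over the whole list of 12 other centromere genes, most of the constitutive network, 10 were tested, 4 fell, 0 rose and 6 were not called, with a median log2 change of -0.50. The 4 that fell were CENPQ, CENPX, ITGB3BP and CENPL. Besides CENPT and CENPO, the genes not called were CENPC, whose protein links CENP-A chromatin to the outer kinetochore (-0.40, limma adjusted p = 0.0623), CENPB, which encodes a binder of alpha-satellite DNA (-0.18), CENPV (-0.18) and CENPJ (-0.61, limma adjusted p = 0.0791). CENPJ is now named CPAP and encodes a centriole protein. Arrays of CENPC did not overlap between the groups although it missed the threshold.

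**Figure D3:**
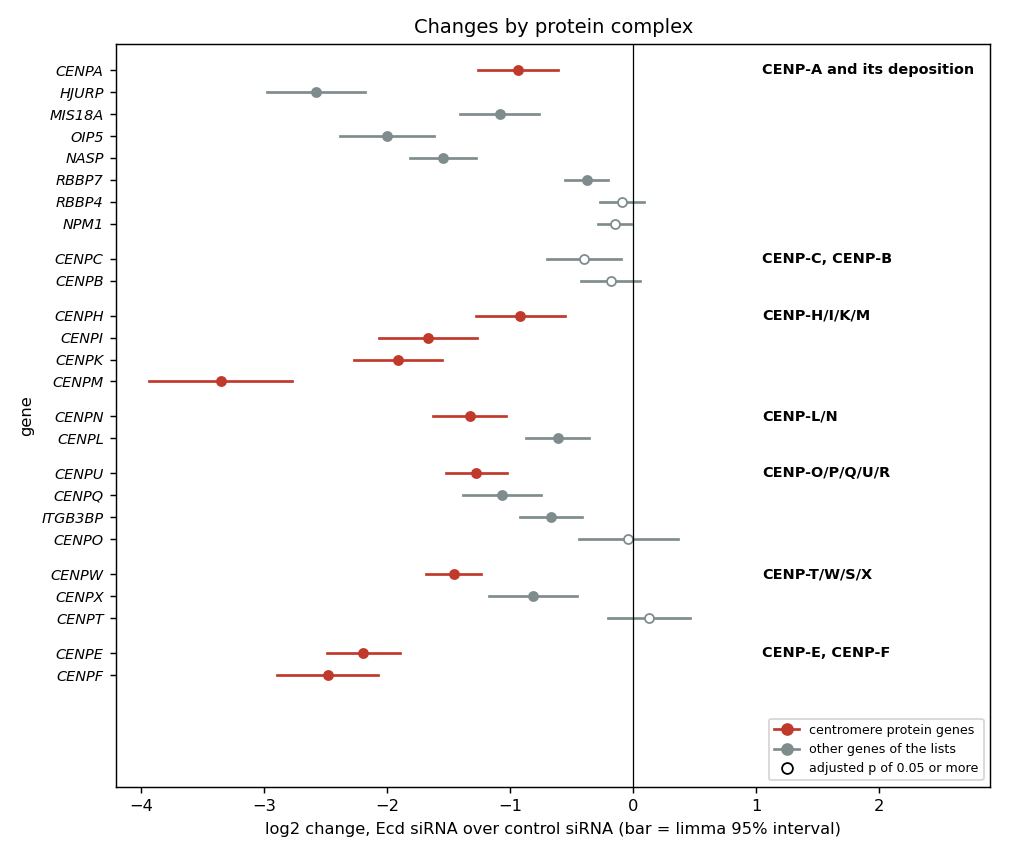
Log2 change (x axis, Ecd siRNA over control siRNA, with limma 95% intervals) of the centromere protein genes (red) and of other centromere and CENP-A deposition genes (grey), grouped by complex; open circles have an adjusted p of 0.05 or more. Within the CENP-T/W/S/X group CENPW lies at -1.46 and CENPT at 0.13.

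Both genes of the mitotic kinetochore proteins fell strongly. CENPE, the kinesin gene, read 192.7, 180.5 and 186.7 with Ecd siRNA, against 781.2, 1012.8 and 957.6 with control siRNA. Its Ecd siRNA arrays were nearly equal, 20.3% of the control signal remained, and the log2 change was -2.20 (SE 0.13, limma adjusted p = 1.84e-06). CENPF read 209.5, 337.5 and 204.1 with Ecd siRNA, against 1248.8, 1664.9 and 1426 with control siRNA. One Ecd siRNA array was above the other two, all were far below the control siRNA arrays, and the log2 change was -2.48 (SE 0.19, limma adjusted p = 7.41e-06).

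Genes of proteins that work with CENP-E and CENP-F went different ways. Of 11 partner genes tested, 5 fell, 1 rose and 5 were not called, with a median log2 change of -0.26. The checkpoint kinase genes BUB1B (-2.63), whose protein binds CENP-E, and BUB1 (-2.41), which recruits CENP-F, were among the falls, with KIF18A (-2.19), BUB3 (-0.55) and MAD1L1 (-0.51). The dynein regulator genes NDE1 (0.06), NDEL1 (0.05), NUDC (-0.26) and PAFAH1B1 (-0.04) were not called in their brightest probe sets, nor was CLASP2 (-0.13). Other probe sets of the same genes differed, with 2 of PAFAH1B1 higher at 0.53 (adjusted p = 0.0042 over probe sets) and 0.42 (0.026), and 1 of NUDC lower at -0.35 (0.0095). CLASP1, the gene of a microtubule plus-end protein, rose by 0.33 (limma adjusted p = 0.0155). That call was absent with the arrays set to a common median, without the intensity trend, with its probe sets averaged, and without Ecd siRNA replicate 2 or 3 or control siRNA replicate 1 or 2. The call of MAD1L1 was absent without a filter, and without Ecd siRNA replicate 1 or 3 or control siRNA replicate 2 or 3, and that of BUB3 as the mean of its probe sets (-0.23).

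Most tested genes of the outer kinetochore, which the centromere network carries, were lower as well. Of 9 genes tested from a list of 10, 8 fell, 0 rose and 1 was not called, with a median log2 change of -1.48. NDC80 (-2.82), NUF2 (-2.80) and SPC25 (-2.07), subunits of the complex that grips microtubules, and the scaffold gene KNL1 (-2.04) had the lowest adjusted p. Other KNL1 probe sets were at -0.49 (adjusted p = 0.264 over probe sets) and -0.64 (0.0947) and were not called. NSL1, a Mis12 complex gene at -0.29 (limma adjusted p = 0.0256), lost its call in 9 of 17 alternatives, among them each single array left out other than Ecd siRNA replicate 3, and was at 0.02 with probe sets without _s or _x preferred. PMF1, of the same complex, was at -0.09 (limma adjusted p = 0.66). SPC24 lay under the filter at a mean signal of 12.5 with Ecd siRNA and 238.7 with control siRNA.

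Several genes were read by more than 1 probe set, and these did not all give the same size of change. Of the 20 probe sets, 16 lay above the filter, and fitted 1 by 1 among 27009 probe sets, 15 were lower, 0 higher and 1 not called. Those of CENPM and 1 of CENPI lay under the filter on every Ecd siRNA array, and of the other 14, 13 were lower. The share of all such probe sets called lower was 8.62%. CENPN had 3 of them, at -1.33, -1.27 and -2.15. The interval of the last, -2.52 to -1.79, did not overlap those of the first (-1.63 to -1.03) or the second (-1.56 to -0.98). CENPU had 3 as well, at -1.28, -0.73 and -0.37. The one at -0.37 read 287.2, 364.2 and 262 with Ecd siRNA, against 408.1, 377.7 and 397.3 with control siRNA, and was not called (limma adjusted p = 0.136). The groups did not overlap there either. The second probe set of CENPF was at -1.83, with an interval that overlapped that of the brightest one. The second of CENPI, the one that passed through the control siRNA arrays alone, was at -2.01, and at -2.43 and -1.39 with pseudocounts of 1 and 64. Why probe sets of 1 gene differ was not tested.

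**Figure D4:**
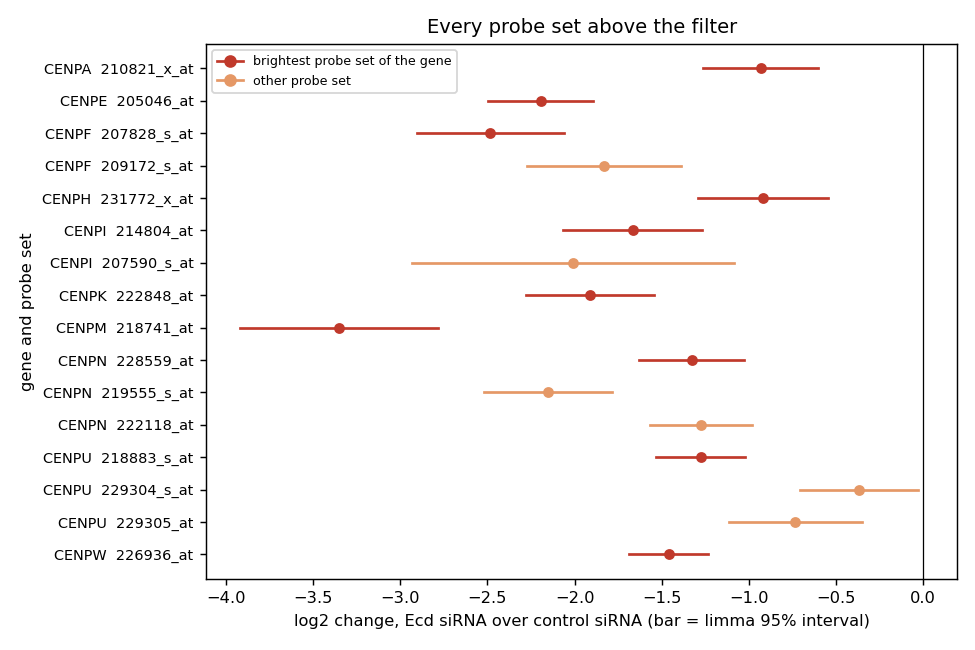
Log2 change (x axis, Ecd siRNA over control siRNA, with limma 95% intervals) of each of the 16 probe sets of the centromere protein genes above the filter (y axis), with the brightest of each gene in red and others in orange. All points lie below 0, and the probe sets of CENPN and of CENPU spread from -2.15 to -1.27 and from -1.28 to -0.37.

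Since the 10 genes moved together, their promoters were read from RefSeq (GRCh38.p14), where 8 of the 10 were listed. The start site of the window listed for CENPI lies 2854 bases inside the gene, and that window was left out. In the windows of the other 7 the start site is the gene's first base. Genes of late cell cycle are known to carry a cell cycle homology region (TTTGAA or TTTAAA) and CCAAT boxes near the start site, and genes of the G1/S transition E2F elements. The stretches below run from 150 bases before the start site to the base before it, for the 6 members that hold one of the first 2 kinds of motif there. Capitals mark these motifs on either strand, so that ATTGG is a CCAAT box on the other strand.
CENPA, chr2:26785906-26786055, plus strand: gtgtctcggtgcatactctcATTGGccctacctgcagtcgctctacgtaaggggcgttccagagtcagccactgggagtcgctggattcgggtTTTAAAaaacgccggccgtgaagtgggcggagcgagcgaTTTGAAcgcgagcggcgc
CENPE, chr4:103198344-103198493, minus strand: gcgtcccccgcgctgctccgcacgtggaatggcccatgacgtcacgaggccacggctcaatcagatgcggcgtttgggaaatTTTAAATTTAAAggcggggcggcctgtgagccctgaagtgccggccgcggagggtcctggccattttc
CENPF, chr1:214603045-214603194, plus strand: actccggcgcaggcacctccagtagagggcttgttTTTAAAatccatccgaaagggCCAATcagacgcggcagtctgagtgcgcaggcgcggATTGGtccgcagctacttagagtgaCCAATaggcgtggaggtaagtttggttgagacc
CENPK, chr5:65563169-65563318, minus strand: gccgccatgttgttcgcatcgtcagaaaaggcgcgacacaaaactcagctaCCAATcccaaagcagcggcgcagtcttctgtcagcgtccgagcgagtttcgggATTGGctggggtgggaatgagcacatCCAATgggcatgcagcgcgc
CENPN, chr16:81007064-81007213, plus strand: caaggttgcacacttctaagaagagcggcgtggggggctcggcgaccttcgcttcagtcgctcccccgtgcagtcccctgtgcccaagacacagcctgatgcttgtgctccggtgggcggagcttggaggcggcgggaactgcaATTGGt
CENPU, chr4:184734097-184734246, minus strand: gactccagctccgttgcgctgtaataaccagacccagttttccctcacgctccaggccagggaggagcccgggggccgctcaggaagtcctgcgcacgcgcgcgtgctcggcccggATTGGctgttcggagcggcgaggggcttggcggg
In windows of 300 bases, from 250 before to 50 after the start, TTTGAA or TTTAAA was found in 4 of the 7 members (CENPA, CENPE, CENPF and CENPN) and in 24.6% of the 24882 windows that likewise lie at the first base of their gene. CCAAT was found in 6 of 7 (CENPA, CENPF, CENPK, CENPN, CENPU and CENPW) and in 36.1% of these windows. An E2F-like element, searched as TTTCCCGC, TTTGGCGC, TTTCGCGC or TTTGCCGC, was found in 2 of 7 (CENPA and CENPU) and in 3.32% of these windows. Among the 10253 windows of tested genes the shares were 17.4% for TTTGAA or TTTAAA, 37.0% for CCAAT and 4.98% for an E2F-like element. Both strands were searched, TTTAAA reads the same on each and was counted once, and 2 copies of TTTAAA in CENPE abut without overlap. CENPF held CCAAT on either strand at 3 positions of the printed stretch, as did CENPK. With 7 windows these counts are a description.

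Of the 8 members with a listed window, CENPK and CENPN start within 1000 bases of another gene on the opposite strand. For CENPI the search used the listed start inside the gene, and CENPH and CENPM were not searched. The starts of CENPK and PPWD1, which encodes a spliceosomal peptidyl-prolyl isomerase, lie 128 bases apart. PPWD1 averaged 427.6 with Ecd siRNA and 458.2 with control siRNA and was not called (log2 change -0.10, 95% interval -0.40 to 0.19, limma adjusted p = 0.663), whereas the interval of CENPK was -2.27 to -1.56. The starts of CENPN and CMC2, a gene of mitochondrial complex IV assembly, lie 329 bases apart. CMC2 fell by 0.45 on the log2 scale (95% interval -0.71 to -0.19, limma adjusted p = 0.0195), against an interval of -1.62 to -1.03 for CENPN. These neighbours were looked up after the values of the members were seen.

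The genes whose log2 signals most resembled the mean standardized profile of the 10 members over the 6 arrays were FOSL1 (Pearson r = 0.9996), BUB1 (0.9995), MICB (0.9992), PBK (0.9989) and CDK1 (0.9986). The 6 arrays fall into 2 groups, which sets most of such a correlation, and 130 of 14593 other tested genes had an r over 0.99. Their log2 changes were -1.13, -2.41, -1.55, -2.64 and -2.56.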

How the data were processed

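The study measured RNA of 76N cells on Affymetrix arrays, 3 given Ecd siRNA and 3 given control siRNA, grouped by their titles. The authors deposited linear intensity values, 1 for each probe set, made with MAS5, per the submitters' processing notes, which name no version or scaling target. On each array the mean between percentiles 2 and 98 was close to 500.05, so any shift common to all transcripts would be hidden. Detection calls were not used here.

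Probe sets were named from the platform annotation, and 41091 had 1 symbol. The brightest of each gene by mean log2(signal + 16) was kept. Genes in the upper 60% of probe sets by that mean, equal to a signal above 84.6, were fitted in limma 3.58.1 under R 4.3.3. The fit (lmFit, eBayes with trend) had no covariates, with Benjamini-Hochberg adjustment over 14603 genes. On simulated data for these 14603 genes, 100 were changed by 1 and 100 by 0.5 (log2). Of these 76% and 36% were recovered, with 6 of 118 calls false. The real data had more genes called, 1607 lower and 1468 higher, so these rates need not hold for them. Intervals are limma's 95% intervals, and the number of arrays limits precision. P-values measure the spread between these 6 arrays.

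The members, gene lists and motifs were chosen with earlier results of these data known. Named were ECD, the members with their probe sets, all genes of the first pair of lists, up to 4 of each other list by smallest adjusted p with those not called where 5 or fewer, the 5 most alike genes and the cell type markers. MAD1L1, CLASP1, SPC24, NSL1 and further probe sets of list genes were named after their values were seen. Alternatives tried were pseudocounts, scaling, filters, probe set choice, array weights, no trend, a block for the replicate number, and leaving out each array.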

Additional observations from a re-analysis of the deposited data

How the results depend on the processing

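Each of the 10 centromere protein genes and ECD kept its direction and its side of the 0.05 threshold in every alternative that gave a value, with limma adjusted p up to 0.0204 (CENPH without the intensity trend). The choice of probe sets moved some changes. As the mean of its probe sets CENPF was at -1.25 and CENPI at -0.85, where dim probe sets enter, and CENPU was at -0.73 in its probe set without _s or _x. CENPM gave no value at the upper 40% filter, without control siRNA replicate 2 or without control siRNA replicate 3, where it fell under the filter, and CENPF none with probe sets without _s or _x preferred. In these 4 settings 9 of 9 members were lower. Genes called lower among all tested ranged from 1146 to 1714 and genes called higher from 1040 to 1587. For the partner genes of CENP-E and CENP-F, the count that rose was 0 with a common median and 0 without the intensity trend, and 0 to 2 on leaving out 1 array each, with 0 without Ecd siRNA replicate 2, 0 without Ecd siRNA replicate 3 and 2 without control siRNA replicate 3. Counts that fell ranged over all alternatives from 4 to 6 for partner genes, 7 to 9 for outer kinetochore genes, 5 to 6 for deposition genes and 4 to 5 for the other centromere genes. CENPJ was called lower in 5 alternatives and PAFAH1B1 higher in 4. The cause was not tested. With the replicate number as a block, all 10 members were lower, the changes were the same, 1695 genes were lower and 1582 higher, and ECD had an adjusted p of 0.00038. Arrays of the same number had correlated deviations of -0.009, 0.079 and 0.152, against -0.134 to 0.057 for arrays of different numbers. Whether the same number marks a pair was not tested, and the main fit took no pairs. Signals under the filter, such as CENPM with Ecd siRNA, limit how large a fall can be read.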

Other observations

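The 4 probe sets of these genes under the filter were dim in both groups. For CENPN the dim one averaged 22.5 with Ecd siRNA and 20.5 with control siRNA, and that of CENPF 15.1 with Ecd siRNA and 4.27 with control siRNA. CENPI had 2, at 25.0 with Ecd siRNA and 13.2 with control siRNA, and at 8.27 with Ecd siRNA and 13.2 with control siRNA. Only the last of these 4 had groups that did not overlap, and all 4 lay outside the fit.

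Ecd siRNA replicate 2 had the highest signal of its group in 7 of the 10 centromere protein genes. The summed signal of the 10 was 35.9% of the mean control sum there, against 30.8% and 31.1% in replicates 1 and 3. Over all probe sets the median signal of replicate 2, 146.7, was likewise the highest of its group, with 138.7 and 134.6 on replicates 1 and 3. How often replicate 2 read highest over all tested genes was not counted. The ECD signal of replicate 2, 599.8, was the highest of its group, where replicates 1 and 3 read 588.9 and 542.5. Whether ECD and member signals go together across these arrays was not tested. Without Ecd siRNA replicate 2 the changes of the 10 genes ran from -3.47 (CENPM) to -0.87 (CENPA).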
